A study of Homo sapiens with 8 samples.

Results

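Expression of 10 genes of the TRAIL, death receptor and necroptosis pathways was followed in A549 cells, a human lung adenocarcinoma line. They were TNFSF10, TNFRSF10A, TNFRSF10B, TNFRSF10D, TNFRSF1A, CFLAR, FADD, RIPK1, RIPK3 and MLKL. They were chosen by symbol from their place in these pathways, with earlier results of these data known. All 10 had a row among the 60664 genes of the count table. Of the 10, 9 had counts and passed the filter on low counts, 8 of them in every library. RIPK3 was listed at 0 in all 8 libraries. Counts per gene from mRNA sequencing were available for 4 groups of 2 libraries each.

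The untreated cells received neither agent, and no vehicle is named for them. The IFN-γ cells received interferon-γ at 20 ng/mL, the AX-0085 cells received the kinase inhibitor AX-0085 at 0.5 µM, and the last group received both. According to the labels, IFN-γ was given first for 24 h, AX-0085 was then added, and cells were harvested 24 h later. All groups are cultures of this 1 line, and the labels do not say whether the 2 libraries of a group came from separate cultures. The p-values therefore measure only the spread between these libraries, which may be technical.

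TRAIL, the product of TNFSF10, is a ligand of the TNF family that binds death receptors on the surface of target cells. A bound death receptor recruits the adaptor FADD and CASP8, and the CASP8-like protein cFLIP, encoded by CFLAR, limits the activation of CASP8 in that complex. When caspases are not active, the kinases RIPK1 and RIPK3 can form a complex that phosphorylates MLKL, which then permeabilises the plasma membrane in the form of cell death called necroptosis. Interferons act through transcription factors that bind GAS and ISRE elements in promoters.

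Total counts ranged from 20672828 to 29978251 per library, so that 3 counts corresponded to 0.100 to 0.145 CPM, the count scaled to the size of its library. As a check of the IFN-γ labels, GBP1, an interferon-induced GTPase, had counts of 4 and 2 untreated, 2 and 1 under AX-0085, 6377 and 8034 under IFN-γ and 73 and 53 under the combination. The summed level of 5 epithelial markers (EPCAM, KRT8, KRT18, KRT19 and CDH1) was 6425 and 6881 CPM untreated, 3397 and 3224 CPM under AX-0085, 2882 and 2575 CPM under IFN-γ and 3661 and 3607 CPM under the combination. Among blood markers, CD3E and FCGR3A were at 0 in every library, PTPRC had at most 1 count, and CD14 had 1 and 4 counts with IFN-γ against 80 to 158 in the other groups. The summed level of the 3 fibroblast markers was 4.60 and 2.98 CPM with IFN-γ and 7.03 to 10.8 CPM elsewhere, with COL1A2 at 0 throughout, and that of the 3 endothelial markers was at most 0.530 CPM. KRT8 and KRT18 carry most of the epithelial sum, and single markers differed from it: with IFN-γ all 5 were called lower, while with AX-0085 alone KRT18 was called lower (−1.30) and EPCAM higher (1.34). The mitochondrial share of counts was 3.55% and 2.72% untreated, 4.12% and 5.73% under AX-0085, 1.71% and 1.82% under IFN-γ and 2.87% and 3.43% under the combination. The epithelial, CD14, fibroblast and mitochondrial levels were lowest in the IFN-γ libraries, and their part in the IFN-γ changes below was not tested. The epithelial sum was also below untreated cells with AX-0085 alone and with both agents. In bulk RNA, fewer cells of a type and less RNA per cell cannot be told apart.

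The promoter sequences of the members with an entry were searched for interferon elements close to the start. These sequences are RefSeq windows of GRCh38.p14 upstream of the start of transcription, printed up to the first GENCODE 44 exon of the gene. Of the 10 members, 6 had an entry. TNFRSF10A, TNFRSF10B, TNFRSF10D and RIPK3 had none and were not searched. The windows of CFLAR and FADD were searched but are not printed. The 4 printed are those of the ligand, the kinase RIPK1, the necroptosis effector MLKL and the receptor TNFRSF1A. Capitals mark a match to the ISRE core, searched on both strands as GAAA, any 2 bases and GAAA. The sequences are 5′ to 3′ on the strand of the gene.
TNFSF10, chr3:172523476-172523680, minus strand: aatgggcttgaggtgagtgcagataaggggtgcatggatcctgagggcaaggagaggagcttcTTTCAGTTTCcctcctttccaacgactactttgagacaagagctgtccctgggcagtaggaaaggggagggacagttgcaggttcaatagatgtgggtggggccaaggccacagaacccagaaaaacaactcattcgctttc
RIPK1, chr6:3068128-3068377, plus strand: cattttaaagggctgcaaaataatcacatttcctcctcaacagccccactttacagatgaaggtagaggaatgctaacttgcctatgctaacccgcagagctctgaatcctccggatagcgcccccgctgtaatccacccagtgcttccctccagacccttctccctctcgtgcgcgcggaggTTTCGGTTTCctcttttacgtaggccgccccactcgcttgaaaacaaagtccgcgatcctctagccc
MLKL, chr16:74700961-74701112, minus strand: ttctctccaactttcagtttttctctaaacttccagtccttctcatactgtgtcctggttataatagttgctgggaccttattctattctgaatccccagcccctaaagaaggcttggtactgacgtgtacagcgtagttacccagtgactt
TNFRSF1A, chr12:6342115-6342326, minus strand: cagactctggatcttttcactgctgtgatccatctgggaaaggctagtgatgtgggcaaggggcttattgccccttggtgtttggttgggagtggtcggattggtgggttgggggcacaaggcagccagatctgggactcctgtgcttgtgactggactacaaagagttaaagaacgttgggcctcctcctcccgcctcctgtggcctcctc

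The ISRE core was found in 2 members, as TTTCAGTTTC at 187 to 178 bases upstream of the RefSeq start of TNFSF10, which lies inside the GENCODE 44 gene, and as TTTCGGTTTC in 2 overlapping windows of RIPK1. These 2 RIPK1 windows hold the same site and also lie inside the GENCODE 44 gene. The RIPK1 window chr6:3063717-3063966, which spans the GENCODE 44 start, held no match. In all, 3.02% of the 35116 promoter windows in the table held the ISRE core on either strand. The GAS element TTCNNNGAA, which reads the same on both strands, was in none of the member windows, against 6.57% of all windows. A match is only a description of the letters, and a window without one says nothing of the factor.

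TNFSF10, which encodes TRAIL itself, had low counts in every group. It lies at chr3:172505508-172523475 of GRCh38, the build of all positions given, on the minus strand (ENSG00000121858). Untreated cells had 6 and 7 counts and IFN-γ cells 7 and 7 counts. Cells with AX-0085 had 19 and 24 counts, and cells with both agents 16 and 19. The AX-0085 libraries were thus all above the 4 libraries without it, and the levels were at most 0.903 CPM. The filter on low counts asked for 0.396 CPM in at least 2 libraries, which TNFSF10 met in both AX-0085 groups and in no library of the other groups. It was kept through the groups where it is high and had to differ, so that its differences are given as a description. Its fitted log2 difference was 1.79 with AX-0085 against untreated cells (standard error 0.43), 1.45 with both agents against untreated cells (standard error 0.44) and 1.03 on adding AX-0085 to IFN-γ (standard error 0.44). Leaving out single libraries moved the difference for both agents to 1.24 without untreated replicate 1 and 1.09 without replicate 2 of both agents. IFN-γ alone gave 0.42 with a 95% interval from −0.74 to 1.59, so that neither a rise nor a fall was detectable at this depth.

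The 2 TRAIL death receptors had higher counts with IFN-γ. TNFRSF10A (chromosome 8) encodes TRAIL-R1. Counts were 941 and 720 untreated, 477 and 519 under AX-0085, 1272 and 1633 under IFN-γ and 754 and 500 under the combination. TNFRSF10B (chromosome 8) encodes TRAIL-R2, also called DR5. Counts were 4888 and 3987 untreated, 3738 and 3824 under AX-0085, 9444 and 13675 under IFN-γ and 6444 and 4501 under the combination. For both genes, scaled levels of the IFN-γ libraries lay above those of all other groups. TNFRSF10A stood at 30.2 CPM ± 1.28 (SD, n = 2) in untreated cells and 66.4 CPM ± 1.09 with IFN-γ, and TNFRSF10B at 162 CPM ± 0.495 and 524 CPM ± 36.0. IFN-γ raised TNFRSF10B by 1.69 in log2 units (3.24-fold, standard error 0.061, edgeR adjusted p = 6.261e-11) and TNFRSF10A by 1.13 (standard error 0.075, edgeR adjusted p = 2.047e-08). Once AX-0085 joined IFN-γ, TNFRSF10A fell by 1.51 and TNFRSF10B by 1.36 (edgeR adjusted p = 2.093e-09 and 5.71e-10). AX-0085 alone gave TNFRSF10A a log2 fold change of −0.65 (edgeR adjusted p = 1.595e-05) and TNFRSF10B one of −0.15 (edgeR adjusted p = 0.05699), both short of the 2-fold limit. Opposite-strand genes cover 16.7% of the exon bases of TNFRSF10A and 7.52% of those of TNFRSF10B, and the strand setting of the counting is not given in the sources used here.

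The decoy TNFRSF10D (chromosome 8), a TRAIL receptor without a complete death domain, had lower levels with IFN-γ. Counts were 1219 and 934 untreated, 911 and 916 under AX-0085, 365 and 517 under IFN-γ and 935 and 636 under the combination. IFN-γ gave a log2 fold change of −0.97 (95% interval −1.14 to −0.79, edgeR adjusted p = 1.963e-07), just short of the 2-fold limit. It was called when scaled by library size alone (−1.08), under a filter of 10 counts or more per library (−1.01) and without untreated replicate 2 (−1.0). Adding AX-0085 to IFN-γ gave 0.54 (edgeR adjusted p = 6.183e-05). Within each library the ratio of TNFRSF10B to TNFRSF10D per exon base was 2.83 and 3.01 untreated, 2.89 and 2.95 under AX-0085, 18.3 and 18.7 under IFN-γ and 4.86 and 4.99 under the combination. On canonical transcript lengths this ratio was 3.545 and 3.774 untreated and 22.88 and 23.38 under IFN-γ, so that its level depends on the lengths used.

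TNFRSF1A, the main TNF receptor with a death domain, lies at chr12:6328757-6342114 on the minus strand (ENSG00000067182). Counts were 14925 and 13183 untreated, 12186 and 13038 under AX-0085, 5002 and 5623 under IFN-γ and 13727 and 10192 under the combination. With IFN-γ it fell by 1.07 in log2 units (standard error 0.075, edgeR adjusted p = 3.626e-08), a call that was lost without IFN-γ replicate 2 (−0.92). Adding AX-0085 to IFN-γ gave 0.87 (edgeR adjusted p = 3.22e-07), under the 2-fold limit, and AX-0085 alone −0.08 (95% interval −0.24 to 0.08).

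CFLAR, which encodes cFLIP, lies at chr2:201116154-201176687 on the plus strand (ENSG00000003402). Counts were 2065 and 1679 untreated, 1197 and 1296 under AX-0085, 2830 and 3492 under IFN-γ and 1699 and 1235 under the combination. The scaled levels were 68.4 CPM ± 0.0424 (SD, n = 2), 48.2 CPM ± 0.778, 145 CPM ± 6.44 and 54.9 CPM ± 0.849 in that order. IFN-γ raised CFLAR by 1.08 in log2 units (standard error 0.060, edgeR adjusted p = 3.901e-09), a value that came to 0.97 and was not called when scaled by library size alone. Once AX-0085 joined IFN-γ it fell by 1.40 (standard error 0.061, edgeR adjusted p = 5.13e-10). AX-0085 alone gave −0.50 (edgeR adjusted p = 1.78e-05), under the 2-fold limit. Relative to CASP8 in the same library, CFLAR stood at 0.395 and 0.378 per exon base untreated, 0.247 and 0.257 under AX-0085, 0.536 and 0.499 under IFN-γ and 0.248 and 0.253 under the combination. On canonical transcript lengths this ratio was 0.223 and 0.213, 0.140 and 0.146, 0.303 and 0.282, and 0.140 and 0.143 in that order, so that its level depends on the lengths used. Overlapping genes cover 12.1% of CFLAR's exon bases.

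FADD, the death domain adaptor, lies at chr11:70203296-70207390 on the plus strand (ENSG00000168040). Counts were 377 and 401 untreated, 278 and 254 under AX-0085, 327 and 414 under IFN-γ and 394 and 266 under the combination. It passed the adjusted p but not the 2-fold limit on adding AX-0085 to IFN-γ (−0.46, edgeR adjusted p = 0.005355) and with AX-0085 alone (−0.47, edgeR adjusted p = 0.00666), and IFN-γ gave 0.24 (edgeR adjusted p = 0.09768). The counts of FADD are uncertain, since 59.2% of its exon bases lie within an opposite-strand long noncoding RNA.

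RIPK1, the kinase at the branch between survival, apoptosis and necroptosis, lies at chr6:3063824-3115187 on the plus strand (ENSG00000137275). Counts were 945 and 804 untreated, 872 and 930 under AX-0085, 586 and 724 under IFN-γ and 978 and 763 under the combination. Scaled, the libraries lay between 29.1 and 35.0 CPM. None of the comparisons passed an adjusted p of 0.05, and the 95% intervals bounded the IFN-γ difference at −0.27 to 0.08 and the AX-0085 difference at −0.045 to 0.29. RIPK3, its kinase partner (chr14:24336025-24340022, minus strand), was listed at 0. BAK1, DIABLO and BCL2L11 were also listed at 0, so that a 0 in this table is not read as absence, and RIPK3 is not measured here.

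MLKL, the effector of necroptosis, lies at chr16:74671855-74700960 on the minus strand (ENSG00000168404), with no overlapping exons. Counts were 779 and 686 untreated, 1011 and 977 under AX-0085, 446 and 554 under IFN-γ and 1669 and 1169 under the combination. The 2 libraries with both agents were the highest, at 53.4 and 52.6 CPM, against 22.3 and 23.6 CPM with IFN-γ, 25.8 and 27.9 CPM untreated and 36.8 and 40.3 CPM with AX-0085. MLKL was the member called higher once AX-0085 joined IFN-γ, by 1.21 (standard error 0.082, 2.31-fold, edgeR adjusted p = 3.292e-08). Against untreated cells, both agents gave 0.98 (95% interval 0.81 to 1.15, edgeR adjusted p = 3.229e-07), just under the 2-fold limit, and it was called without untreated replicate 2 (1.04), without IFN-γ replicate 2 (1.02) and without replicate 1 of both agents (1.01). AX-0085 alone gave 0.52 and IFN-γ alone −0.23 (edgeR adjusted p = 0.0001272 and 0.02791).

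**Figure D1:**
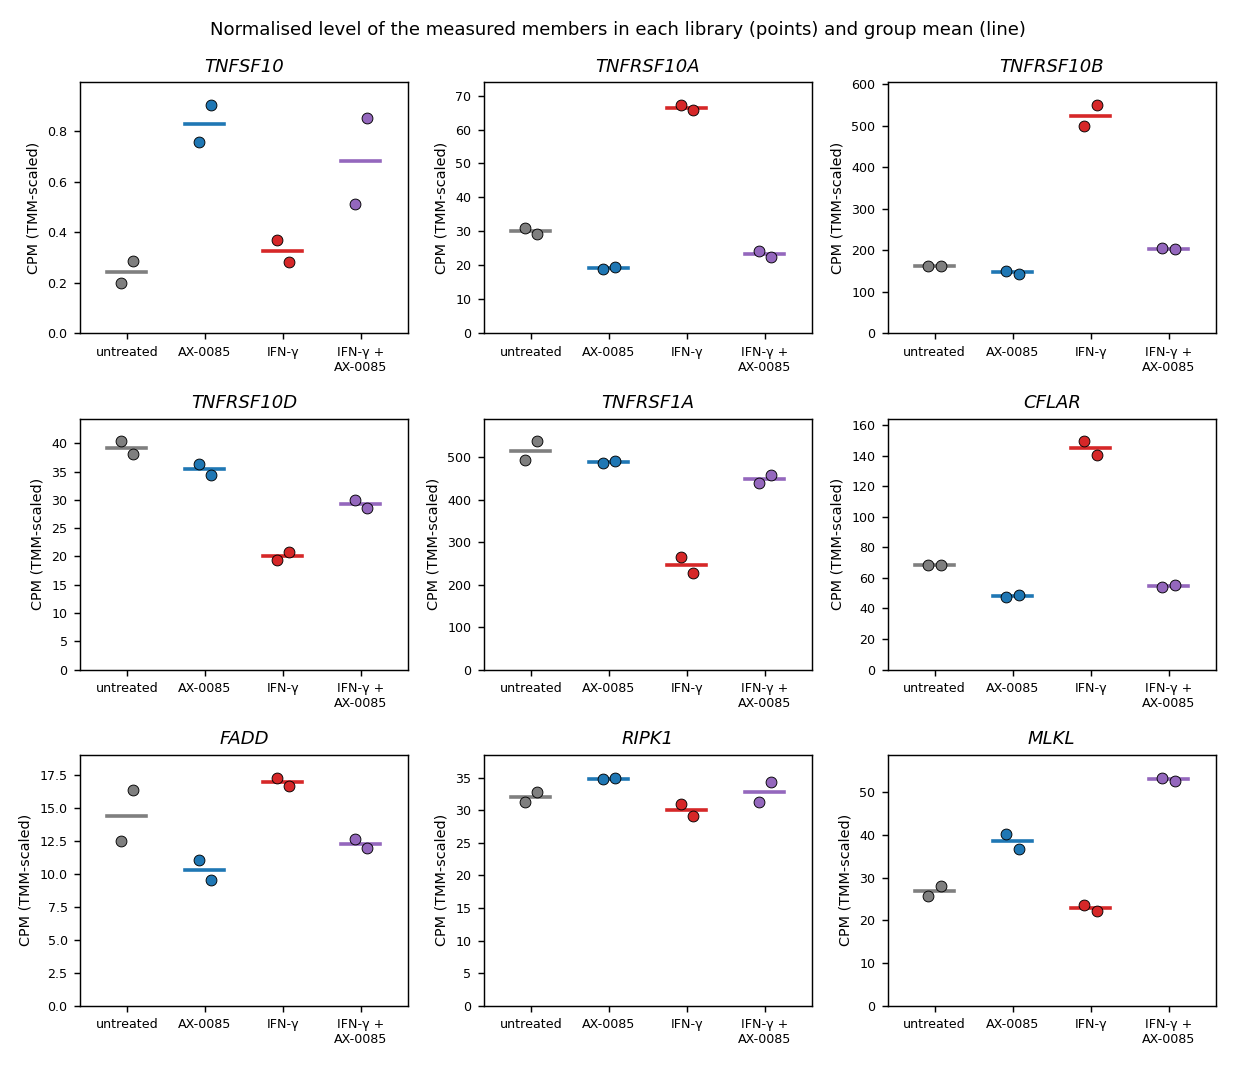
Levels of the 9 measured members in CPM by library (points) and group mean (line), for untreated, AX-0085, IFN-γ and both. TNFRSF10A, TNFRSF10B and CFLAR are highest in the IFN-γ libraries, MLKL in the libraries with both agents, and TNFSF10 in the libraries with AX-0085.

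Of the 9 members tested, 4 were called for IFN-γ against untreated cells at an adjusted p under 0.05 and a fold over 2, where 27.5% of all tested genes were. TNFRSF10B, TNFRSF10A and CFLAR were higher and TNFRSF1A lower, and 10.3% of all genes were called higher and 17.2% lower. The median log2 fold change of the members was 0.24, against −0.06 for all genes. On adding AX-0085 to IFN-γ, 4 of 9 were called, where 24.8% of all genes were. MLKL was higher, like 16.5% of all genes, and TNFRSF10A, CFLAR and TNFRSF10B lower, like 8.28%. The members' median was 0.13, against 0.03. With AX-0085 alone the 1 call was that of TNFSF10, which the filter kept through the AX-0085 groups, so that the count is no result about the members. Here 12% of all genes were called, 6.41% higher and 5.62% lower, and the members' median was −0.15 against 0.01. With both agents against untreated cells, the 1 call was again that of TNFSF10, with the same limit, where 14.7% of all genes were, 7.51% higher and 7.23% lower. Comparing both agents with AX-0085 alone, edgeR called 0 of 9 members and DESeq2 0 of 9, where edgeR called 3.52% of all genes, 1.79% higher and 1.73% lower, although 5 members had an unadjusted p under 0.05. On the adjusted p without a fold limit, 6 members passed with IFN-γ (68.1% of all genes), 7 on adding AX-0085 to it (66.5%), 5 with AX-0085 alone (53.3%), 5 for both against AX-0085 (34.7%), 7 for both against untreated cells (56.9%) and 6 for the interaction (50.3%). The counts for AX-0085 alone and for both against untreated cells include TNFSF10, with the limit given above. All medians of the members include it too. The comparisons share libraries, so that their values are not independent.

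**Figure D2:**
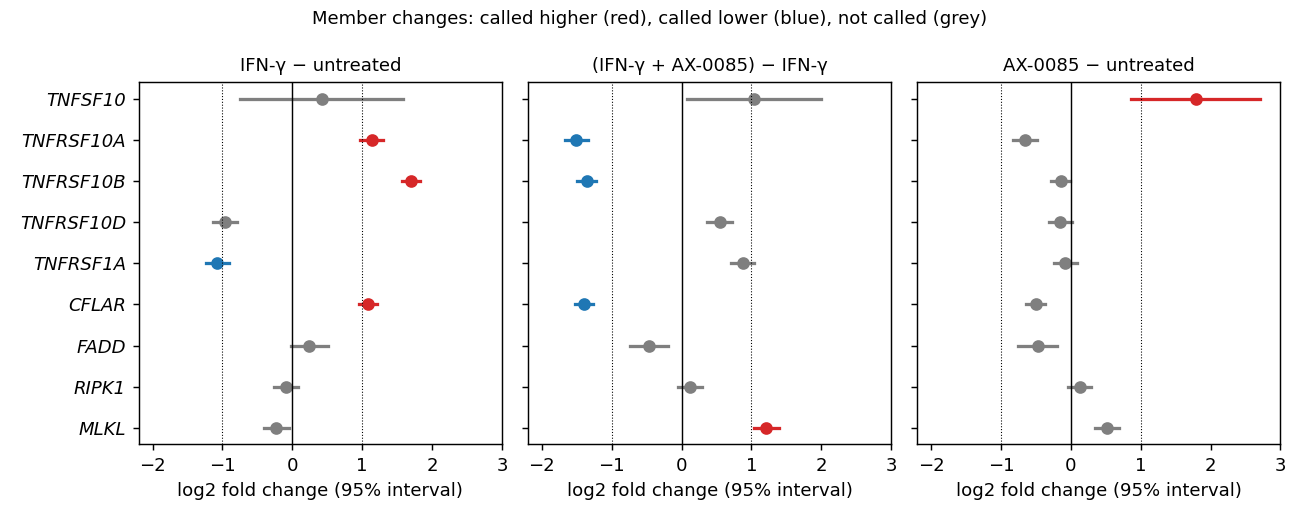
Log2 fold changes of the 9 measured members with 95% intervals. The panels are IFN-γ against untreated cells, both agents against IFN-γ, and AX-0085 against untreated cells. TNFSF10, drawn as called higher with AX-0085, was kept by the filter through the AX-0085 groups. With IFN-γ against untreated cells TNFRSF10B has the largest value (1.69) and TNFRSF1A the lowest (−1.07).

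The interaction asks whether the IFN-γ change differed with AX-0085 present, and it was called for 1 of 9 members, TNFRSF10B, where 18.6% of all tested genes were called, 12.1% higher and 6.46% lower. Its IFN-γ log2 fold change was 1.69 without AX-0085 and 0.48 with it, a difference of −1.21 (standard error 0.085, 95% interval −1.40 to −1.03, edgeR adjusted p = 1.542e-07). TNFRSF1A, CFLAR, TNFRSF10A, TNFRSF10D and MLKL had interactions of 0.95, −0.90, −0.86, 0.69 and 0.69, with adjusted p-values from 2.675e-06 to 0.0002693 by edgeR, without reaching a 2-fold difference. For TNFRSF1A the difference was called when scaled by library size alone (1.07) and without IFN-γ replicate 1 (1.06). FADD and RIPK1 had differences of 0.01 and 0.00, whose sign changed with the scaling.

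**Figure D3:**
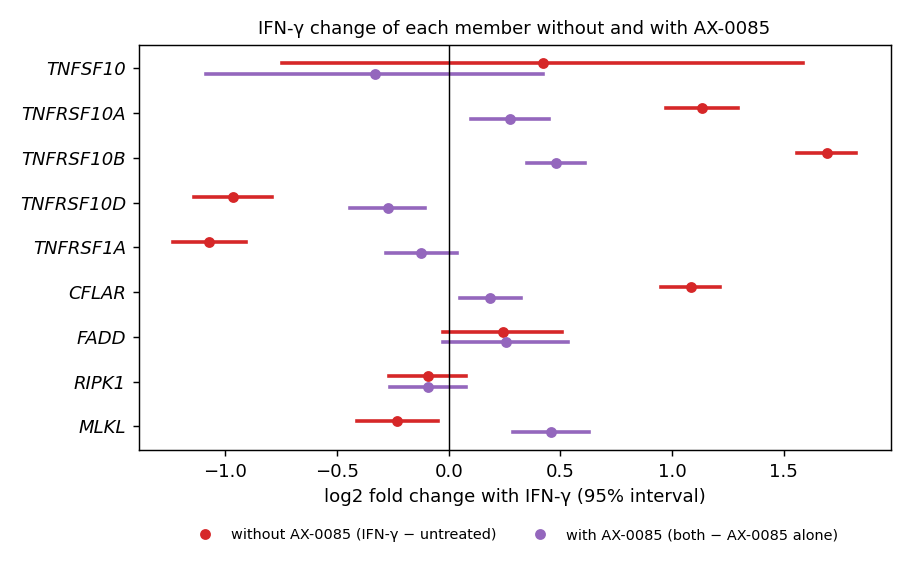
Log2 fold change with IFN-γ for each measured member in the absence and in the presence of AX-0085. TNFRSF10B goes from 1.69 to 0.48, CFLAR from 1.08 to 0.19 and TNFRSF10A from 1.13 to 0.28.

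Levels per exon base (RPKM, the CPM per kilobase of exon) put TNFRSF1A first in untreated cells at 123 ± 7.28 (SD, n = 2), followed by TNFRSF10B at 32.3 ± 0.0919. TNFRSF10D (11.1 ± 0.460) and TNFRSF10A (10.3 ± 0.438) came next and differed by less than the sum of their SDs, then FADD at 8.43 ± 1.6. MLKL (4.72), CFLAR (3.04), RIPK1 (2.63) and TNFSF10 (0.0703) followed. With IFN-γ, TNFRSF10B was first at 105 ± 7.18 and TNFRSF1A second at 58.3 ± 6.41. On the length of the canonical transcript in place of all exons, a choice made after seeing the data, the same genes were first, second and last in each group, with TNFRSF10B at 131 ± 9.0 and TNFRSF1A at 113 ± 12.4 in IFN-γ cells, a difference under the sum of their SDs, while the order of the middle members moved. The TNFRSF10B to TNFRSF1A ratio in IFN-γ cells was 1.59 and 2.04 on all exons and 1.03 and 1.32 on canonical lengths.

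**Figure D4:**
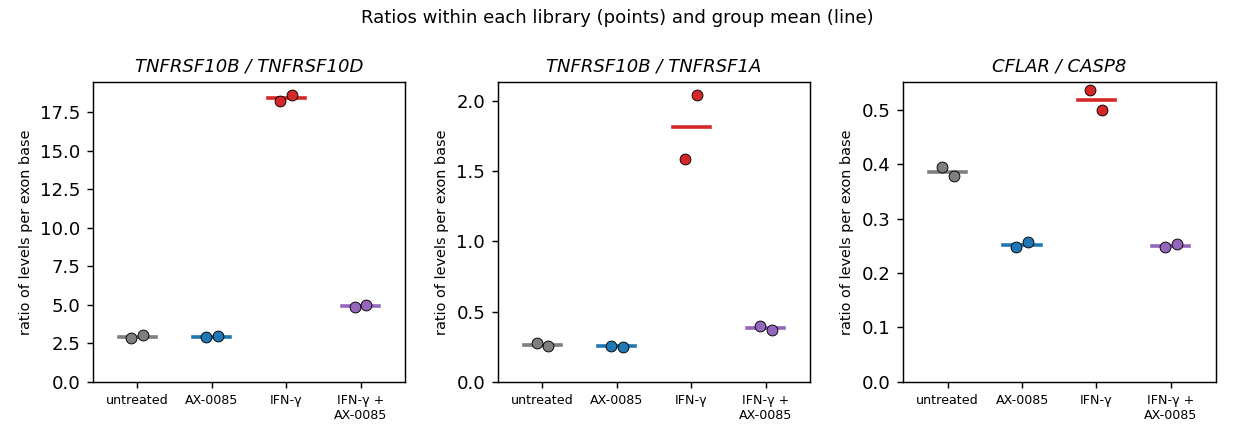
Ratios of levels per exon base within each library (points) and group mean (line): TNFRSF10B to TNFRSF10D, TNFRSF10B to TNFRSF1A, and CFLAR to CASP8. The TNFRSF10B to TNFRSF1A ratio is 1.59 and 2.04 in IFN-γ cells and at most 0.394 in the other groups.

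As a description over the 8 libraries, the 5 genes most like MLKL among 10131 tested genes whose mean log2 CPM reached 2 were SLC45A4 (Pearson r 0.996), SRC (0.994), L1CAM (0.994), SYT15 (0.993) and KAZALD1 (0.992). Those most like TNFSF10 were ZRANB3 (0.981), PSMD5 (0.980), RPL15P3 (0.964), CHMP3 (0.964) and PRKG2 (0.958). TNFSF10 had only 6 to 24 counts and passed the filter through the AX-0085 groups. A high r does not mean changes of like size, since PSMD5 ran only from 78.2 to 87.5 CPM. RPL15P3 is a pseudogene that can share reads with its parent. These points share libraries, so that the 4 groups largely set the values.

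The other genes of these pathways were taken in 5 lists. Of 10 other ligands, death receptors and decoys, 5 were tested, and TNF and FASLG were listed at 0. Few counts lay behind 3 of the 5. No untreated library of TNFRSF1B, the second TNF receptor, or of TNFRSF10C, a decoy TRAIL receptor, reached the level of the filter, nor did either library of TNFRSF25 with both agents. These genes were kept through groups where they are high, so that their differences are a description and the list's count and median are not given. TNFRSF1B had 6 and 9 counts untreated, 1 and 1 under AX-0085, 48 and 50 under IFN-γ and 9 and 9 under the combination. FAS, the receptor of FAS ligand, rose by 1.64, from 336 and 215 counts to 536 and 842. With IFN-γ, 27.5% of all genes were called. After addition of AX-0085, FAS fell by 1.05. TNFRSF10C had 9 and 9 counts untreated, 28 and 24 under AX-0085, 16 and 17 under IFN-γ and 46 and 35 under the combination, with 33.0% of its exon bases inside other genes. TNFRSF25, a death receptor, had 9 and 12 counts untreated, 15 and 13 under AX-0085, 9 and 19 under IFN-γ and 6 and 8 under the combination.

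Of 21 genes of complex I, which assembles on TNF receptors, and its ubiquitin enzymes, 20 were tested. With IFN-γ, 3 were called, all higher, where 27.5% of all genes were called and 10.3% were called higher, and the list's median was 0.45 against −0.06. They were RBCK1, a subunit of the linear ubiquitin ligase (2.82, edgeR adjusted p = 2.829e-12), TAB2, which links ubiquitin to TAK1 (1.15), and TNFAIP3, the ubiquitin editing enzyme A20 (1.14). RBCK1 went from 2345 and 2161 counts to 11338 and 14081. On adding AX-0085 to IFN-γ, 4 were called, all lower, where 24.8% of all genes were called and 8.28% lower, with a median of −0.40 against 0.03. BIRC3, the ubiquitin ligase cIAP2, fell by 2.02, TNFAIP3 by 1.56, CYLD, a deubiquitinase, by 1.22 and RBCK1 by 1.19. AX-0085 alone lowered BIRC3 (−1.18), from 454 and 349 counts to 156 and 179, the 1 gene called of the 20, where 12% of all genes were.

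Of 12 caspase pathway genes, 11 were tested, and DIABLO was listed at 0. With IFN-γ, DFFB, the DNase activated in apoptosis, fell by 1.5 and CASP6, an effector caspase, by 1.25. They were the 2 genes called of 11, where 27.5% of all genes were called and 17.2% lower, and the list's median was −0.41 against −0.06. DFFB had 232 and 184 counts untreated and 44 and 74 with IFN-γ. On adding AX-0085 to IFN-γ, CASP9, the initiator of the mitochondrial pathway (1.35), DFFB (1.31) and CASP6 (1.09) rose, and CYCS, cytochrome c, fell by 1.43. These made 4 of 11 called, where 24.8% of all genes were, with a median of −0.01 against 0.03. CASP8, the initiator that cFLIP limits, gave 0.66 with IFN-γ (edgeR adjusted p = 5.199e-07), which is under the 2-fold limit, and −0.35 on adding AX-0085.

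Of 11 BCL2 family genes, 9 were tested, and BAK1 and BCL2L11 were listed at 0. With IFN-γ, 4 of 9 were called, all higher, where 27.5% of all genes were called and 10.3% higher, with a median of 0.51 against −0.06. The BH3-only genes PMAIP1, which encodes NOXA, and BBC3, which encodes PUMA, rose by 3.06 and 1.70, and the survival genes MCL1 and BCL2 by 1.28 and 1.11. PMAIP1 went from 345 and 225 counts to 1504 and 2302. BCL2 had few counts, at 66 and 33 untreated and 58 and 114 with IFN-γ. Scaled by library size alone, 3 of the 9 were called with IFN-γ. On adding AX-0085 to IFN-γ, 5 of 9 were called, where 24.8% of all genes were, with a median of −0.47 against 0.03. BMF, a BH3-only gene, rose by 2.24, while PMAIP1 fell by 2.12, BCL2L1, which encodes BCL-XL, by 1.81, MCL1 by 1.63 and BCL2 by 1.27. AX-0085 alone raised BMF (2.78, from 44 and 38 counts to 252 and 282) and BBC3 (1.35) and lowered BCL2L1 (−1.20), 3 of 9, where 12% of all genes were called. Other genes' exons cover 41.3% of those of BCL2L1.

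Of 17 other inputs and regulators of necroptosis, 14 were tested. With IFN-γ, 2 of 14 were called, both higher, where 27.5% of all genes were called and 10.3% higher, with a median of 0.12 against −0.06. They were TLR3, a receptor of double-stranded RNA (4.15), and TICAM1, its adaptor TRIF (1.14). TLR3 counts were 24 and 18 untreated, 80 and 98 under AX-0085, 251 and 352 under IFN-γ and 119 and 123 under the combination. On adding AX-0085 to IFN-γ, TLR3 and TICAM1 fell by 1.58 and 1.03, the 2 genes called of 14, where 24.8% of all genes were, with a median of −0.55 against 0.03, and 1 was called without IFN-γ replicate 1 or replicate 1 of both agents. With AX-0085 alone 2 of 14 were called, where 12% of all genes were. TLR3 rose by 2.16, and AURKA, a mitotic kinase, fell by 1.63, from 6144 and 5120 counts to 1630 and 1819.

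**Figure D5:**
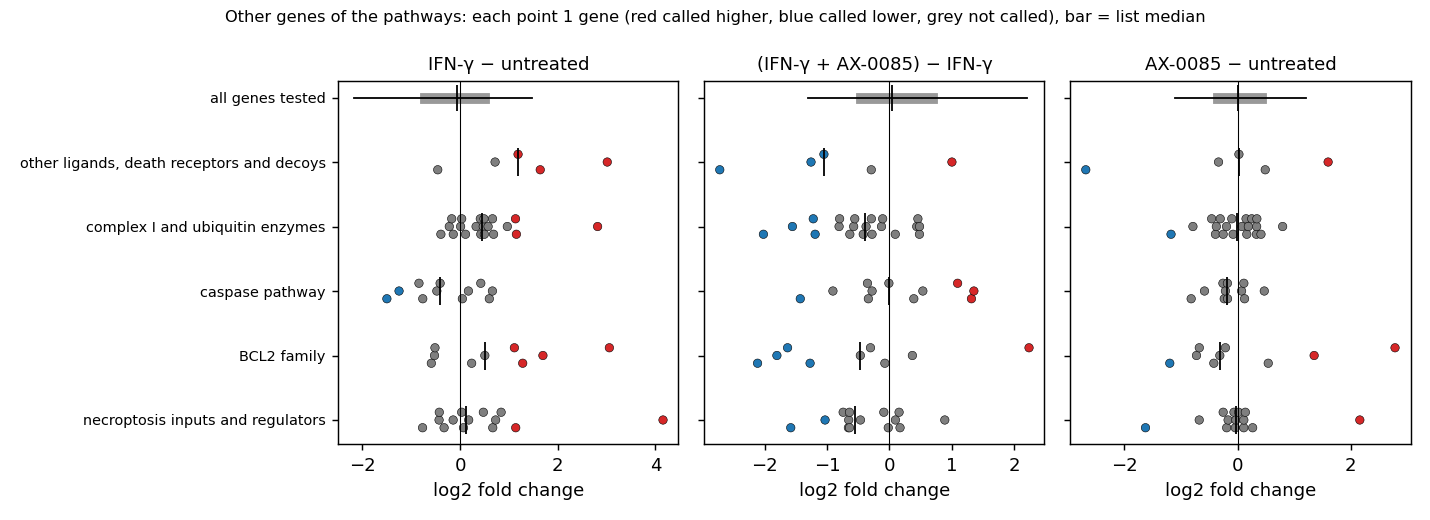
Log2 fold changes of the tested genes of the 5 other lists, 1 point a gene, with the spread of all tested genes as a bar. The members are not drawn. With IFN-γ against untreated cells, list medians run from −0.41 for the caspase pathway to 0.51 for the BCL2 family, the other receptors aside. TNFRSF1B, TNFRSF10C and TNFRSF25 passed the filter through groups where they are high, so that the median of the other receptors is not read.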

How the data were processed

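Per the paper's methods and the labels, TruSeq stranded mRNA libraries were sequenced paired-end, trimmed with Trim Galore 0.6.7, mapped to GRCh38 with STAR 2.7.9a and counted per gene with featureCounts. The authors deposited raw counts, whole numbers without normalization. The annotation release, strand setting and handling of multi-mapped reads are not given in the sources used here.

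Genes were matched to symbols by Ensembl identifier with GENCODE 44. edgeR 4.0.16 in R 4.3.3 was used with filterByExpr (15066 genes kept), TMM factors and the quasi-likelihood test, fitting the 8 libraries together with the 4 groups as the only term, and Benjamini-Hochberg adjustment over all genes tested. A call required an adjusted p under 0.05 and a fold over 2. CPM used TMM-scaled library sizes, fitted values a prior count of 0.125, and RPKM the union of exons. With 2 against 2 libraries an exact permutation test cannot go below p = 0.333, so none was used. The procedure was tested on simulated counts only for the recovery of planted changes, all above the 2-fold limit. False calls and changes near that limit were not checked. By replicate number, deviations from the group means were hardly correlated between groups (correlations from −0.0738 to 0.0444). Genes of low counts weigh as much as others in these values, so they cannot settle whether replicates of a number share a batch. Floors cover counting error only.

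The members and lists were chosen with earlier results of these data known. All members were named, and from each other list the called genes with the largest changes: up to 4 with IFN-γ, 3 on adding AX-0085 and 3 with AX-0085 alone. Some genes that were checked are not reported here. RBCK1, CASP6, TNFRSF10C, MCL1 and BCL2 are given on adding AX-0085, and CASP8 and the genes at 0 throughout, outside that rule, after their values were seen. Alternatives were DESeq2 1.42.0, RLE factors, library size alone, other count filters, a fit restricted to the compared groups, the adjusted p without a fold limit, a replicate block and leaving out each library.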

Additional observations from a re-analysis of the deposited data

Results flagged for a closer look

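The IFN-γ change of TNFRSF10B differed with AX-0085 present: the interaction was −1.21 on the log2 scale (edgeR adjusted p = 1.542e-07), from 1.69 without AX-0085 to 0.48 with it, and the difference itself was tested. Groups of 2 libraries are too small for a test of single outlying libraries.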

How the results depend on the processing

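Of the members' values under other settings, 381 kept sign and call, 29 became called, 2 lost the call and 4 reversed. Most of the 29 came from the adjusted p alone, which is the same fit without the 2-fold limit. Counts of members in this section include TNFSF10, which the filter kept through the AX-0085 groups, except where it is dropped. With 1 library left out, 412 kept both, 6 became called, 3 lost the call and 11 reversed. Calls on the adjusted p alone numbered 6 with IFN-γ, 7 on adding AX-0085 to IFN-γ, 5 with AX-0085, 5 for both against AX-0085, 7 for both against untreated cells and 6 for the interaction, and the share of all genes called was then 68.1%, 66.5%, 53.3%, 34.7%, 56.9% and 50.3%. With at least 10 counts in every library, which drops TNFSF10, 0 members were called for AX-0085 and 0 for both against untreated cells, and all-gene calls fell to 2403 from 3733 on adding AX-0085, to 1089 from 1812 with AX-0085, to 245 from 530 for both against AX-0085 and to 1385 from 2222 for both against untreated cells. DESeq2 called 0 members for both against untreated cells and 322 genes for both against AX-0085. Scaling by library size alone called 2 for the interaction, and moved the median of all genes from −0.06 to −0.18 with IFN-γ, from 0.03 to 0.16 on adding AX-0085 and from 0.05 to 0.17 for the interaction. The interaction of FADD reversed with RLE size factors (−0.0202) and DESeq2 (−0.0190), and that of RIPK1 did with RLE size factors (−0.0319) and DESeq2 (−0.0318), all values near 0. The cause was not tested.

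With single libraries left out, members called ranged from 0 to 2 for both against untreated cells and from 1 to 2 for the interaction. TNFSF10 for both against AX-0085 ranged from −0.69 to 0.065, RIPK1 from −0.15 to 0.0031 there and from −0.030 to 0.14 against untreated cells, the interaction of FADD from −0.19 to 0.19 and that of RIPK1 from −0.066 to 0.051.

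The replicate number as a block left 4, 4, 1, 0, 1 and 1 members called in the 6 comparisons and changed the call or sign of 0 of 54 member values. The labels do not say whether libraries of the same replicate number were handled together. The setting with only the groups compared could not be fitted for the interaction. Depth limits TNFSF10 most, at 6 to 24 counts.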
